A study of Rattus norvegicus with 20 samples.

Results

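The 9 genes described here encode feedback inhibitors of mitogen-activated protein (MAP) kinase signalling, and they were measured in rat kidneys after experimental injury. They are the dual-specificity phosphatase genes Dusp1, Dusp4, Dusp5, Dusp6, Dusp8 and Dusp10, the sprouty genes Spry2 and Spry4, and the sprouty-related gene Spred1. They were chosen by symbol, with earlier results of these data known. Each matched 1 row of the deposited table of 34681 rows, and 9 of 9 passed the filter on low values. The study, whose title names trauma-induced acute kidney injury, sequenced mRNA of frozen Rattus norvegicus kidneys, with stranded paired-end reads, in 20 libraries. The labels give 4 groups, which are RM-HS with 3 libraries, RM with 6, HS with 5 and Sham, the control, with 6. The labels do not spell out RM or HS and give no strain, age, dose or time after injury, and the design text counts 5 RM libraries and 19 in all, whereas the labels give 6 and 20. Whether the libraries of a group are separate animals is not stated, and p-values here measure only the spread between them, which may be technical.

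MAP kinases are switched on by phosphorylation at the end of a relay that runs from surface receptors through Ras and a chain of kinases, and the main branches end in ERK, JNK and p38. Dual-specificity phosphatases remove those phosphates, while sprouty and Spred proteins act upstream and hold back the Ras to ERK part of the relay. Many of these genes are themselves induced by the pathway they restrain, and their transcripts are often read as a trace of recent MAP kinase activity. In the kidney, the same kinases respond to growth factors, oxidants, osmotic stress and loss of blood flow.

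Promoter windows from RefSeq (GRCr8 build, 250 bases before to 50 bases after an annotated start) were found for 8 of the 9 genes, in 9 windows, since Spry2 has a pair of starts. Dusp4 had no window. The windows of Dusp1, Dusp5 and Dusp8 are shown because these genes had the largest rises against Sham in RM-HS kidneys. Capitals mark motifs searched on both strands. These are the cyclic AMP response element TGACGTCA, its core TGACG, the AP-1 site TGANTCA, the ETS site CCGGAAGT and the CArG box bound by serum response factor.
Dusp1, chr10:17184603-17184902, plus strand: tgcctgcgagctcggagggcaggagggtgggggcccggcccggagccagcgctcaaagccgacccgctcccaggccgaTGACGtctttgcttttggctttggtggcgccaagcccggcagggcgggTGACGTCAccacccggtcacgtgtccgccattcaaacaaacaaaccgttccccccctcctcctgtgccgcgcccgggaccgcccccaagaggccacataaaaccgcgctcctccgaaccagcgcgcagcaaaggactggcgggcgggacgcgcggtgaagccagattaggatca
Dusp5, chr1:262543524-262543823, plus strand: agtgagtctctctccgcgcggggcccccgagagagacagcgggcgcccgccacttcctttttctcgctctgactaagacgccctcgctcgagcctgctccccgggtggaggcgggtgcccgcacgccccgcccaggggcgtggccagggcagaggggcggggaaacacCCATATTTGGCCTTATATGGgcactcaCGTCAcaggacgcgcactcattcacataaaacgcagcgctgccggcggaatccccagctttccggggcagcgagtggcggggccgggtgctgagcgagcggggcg
Dusp8, chr1:206612392-206612691, minus strand: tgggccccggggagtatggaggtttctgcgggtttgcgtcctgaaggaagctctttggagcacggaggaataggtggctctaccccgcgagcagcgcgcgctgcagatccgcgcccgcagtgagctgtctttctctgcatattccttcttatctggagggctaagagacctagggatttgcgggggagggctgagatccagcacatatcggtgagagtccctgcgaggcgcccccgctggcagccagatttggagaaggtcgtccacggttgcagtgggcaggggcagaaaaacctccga
In the Dusp1 window the capitals are 1 full cyclic AMP response element, starting at -124 from the annotated start, and 1 separate core at -172. The full element holds the core on both strands. A full element was in 1.83% of all 33469 windows and a core in 21.2%, against 1 and 3 of the 9 windows of these genes. In the Dusp5 window the capitals are a pair of adjoining CArG boxes that start at -82 and -72, and a core on the minus strand at -55. A CArG box was in 1.64% of all windows, and of these genes only Dusp5 had one. The Dusp8 window held none of the motifs, as did the windows of Dusp6, Dusp10, Spry4 and Spred1, and the other motif found in a Spry2 window was 1 core, at -219. AP-1 and ETS sites were in 7.33% and 3.81% of all windows and in 0 of these 9. A match is a string of letters and no evidence of a bound factor.

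Libraries held 45.05 to 109.9 M reads, of which 42.2% to 54.7% lay on the mitochondrial genome. The lowest count behind any value given for these genes was 16 reads, for Dusp4 in 1 Sham library. Every read count behind the Dusp4 and Dusp10 values was an even number. Whether both reads of a pair were counted singly was not tested, so sequenced pairs may be fewer than the reads given. The tissue label was checked on Slc5a2, which early proximal tubule cells use to take up glucose and which was chosen after its values were seen. It stood at 9389 normalized counts or more in each RM-HS, RM and HS library. In Sham it stood at 6791 and 7863 in replicates 1 and 6 but at 48.2, 396, 180 and 43.1 in replicates 2 to 5. Sham replicates 2 to 5 thus stood apart from every other library in this gene. Results of the 9 genes are therefore also given with Sham replicates 1 and 6 alone where that changed a call. They are also given for Dusp1 and Dusp8, whose changes against Sham moved most. For genes other than the 9, only counts over all genes are given with those controls, so other results may change. Library names begin with R in every RM-HS and Sham library, in 1 RM and in 3 HS libraries, and with S in the other 5 RM and 2 HS libraries. No source says what the letters mean. RNA from kidney tissue cannot tell fewer cells of a type from less RNA per cell.

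Against Sham, 8 of the 9 genes rose in RM-HS kidneys, 9 of 9 in RM kidneys and 6 of 9 in HS kidneys, and none fell. Over all 15954 genes tested, 21.3% were higher and 21.0% lower in RM-HS, 26.2% higher and 26.8% lower in RM, and 23.3% higher and 23.2% lower in HS. These shares are given as background only, since the 9 genes were not chosen independently of these data. The median log2 fold change of the 9 genes was 1.28 in RM-HS, 1.39 in RM and 0.64 in HS, where the median over all genes was -0.03, -0.04 and -0.03. In RM-HS and in RM, the injured libraries lay wholly above the Sham libraries for the same 7 genes, namely Dusp1, Dusp5, Dusp6, Dusp8, Spry2, Spry4 and Spred1. In HS this held for 3, namely Dusp5, Dusp8 and Spred1. Over all genes, 16.5%, 13.3% and 13.7% lay wholly above Sham in RM-HS, RM and HS. The 3 comparisons share their control libraries. Levels are DESeq2-normalized read counts, and each fold change is a limma estimate ± SE of the difference in log2(value + 1), which understates the change of low genes. Its p is adjusted by the Benjamini-Hochberg method over all genes tested, and calls are under 0.05.

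**Figure D1:**
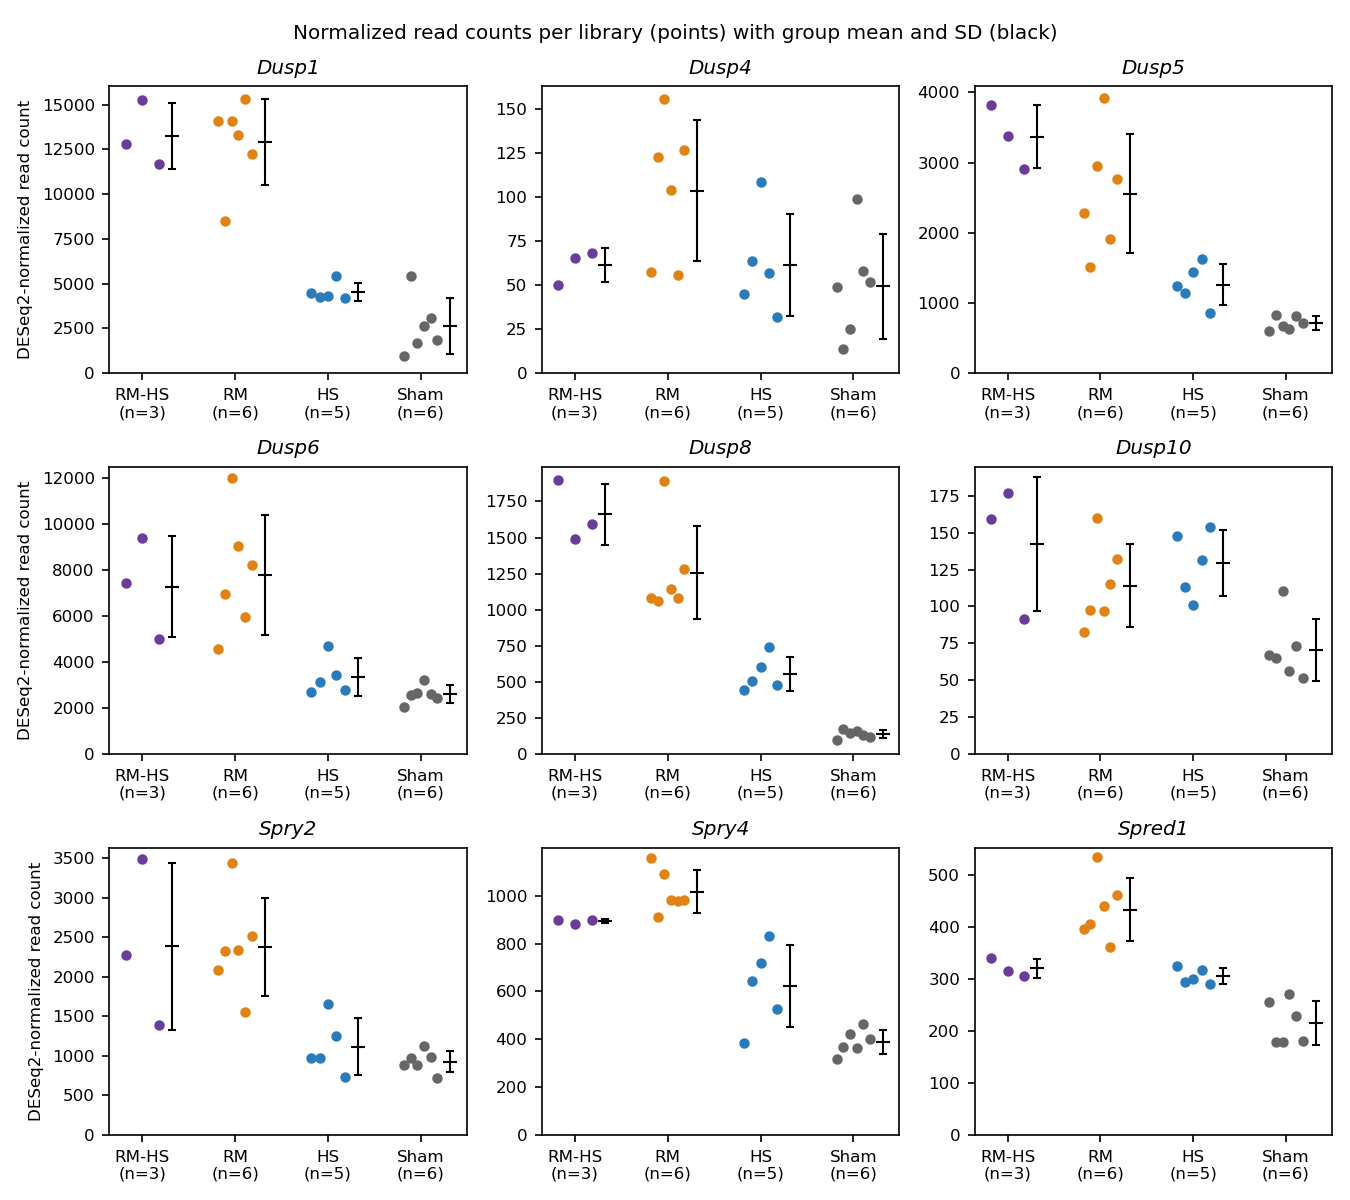
DESeq2-normalized read count (y axis, from 0) of each gene in each library, by group (x axis, RM-HS n = 3, RM n = 6, HS n = 5, Sham n = 6). Points are libraries, and black marks are the group mean with SD. Dusp8 reached 1490 to 1899 in RM-HS and 1058 to 1893 in RM, against 99.5 to 174 in Sham, whereas Dusp4 points overlap in all groups.

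Dusp1 encodes a nuclear phosphatase that is made within minutes of stress and acts on p38, JNK and ERK (GSRG0005271, rn6 chr10:16969833-16973424). It stood at 12821, 15237 and 11654 in the RM-HS libraries, at 8502 to 15318 in RM (median 13695) and at 4447, 4245, 4308, 5434 and 4203 in HS, against 963 to 5424 in Sham (median 2247). RM-HS and RM libraries all lay above HS and Sham, and the HS libraries lay close together. Sham replicate 2, at 5424, was above 4 of the 5 HS libraries. The log2 fold change against Sham was 2.55 ± 0.33 in RM-HS (adjusted p = 7.1e-06), 2.49 ± 0.27 in RM (adjusted p = 3.2e-07) and 0.9995 ± 0.28 in HS (adjusted p = 0.0065). With Sham replicates 1 and 6 as the only controls it was 3.30, 3.25 and 1.75, and the highest adjusted p of the 3 was then 0.00012. Within libraries named R, with 3 HS libraries, the HS difference was 0.94 and did not pass (adjusted p = 0.075), and over its 32 alternatives the HS adjusted p ran from 0.00012 to 0.075.

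Among phosphatases that act on ERK, Dusp5 is nuclear and ERK-specific (GSRG0002263, rn6 chr1:274245184-274258611). Its values were 3816, 3375 and 2915 in RM-HS, 1515 to 3925 in RM (median 2526), and 1243, 1136, 1434, 1620 and 853 in HS, against 603 to 833 in Sham (median 690). Each injured library exceeded each Sham library. Dusp5 rose by 2.25 ± 0.23 in RM-HS (adjusted p = 5.1e-07), by 1.79 ± 0.19 in RM (adjusted p = 2.1e-07) and by 0.80 ± 0.19 in HS (adjusted p = 0.0022).

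Dusp6, the cytoplasmic ERK phosphatase (GSRG0027660, rn6 chr7:41475150-41479393), stood at 7439, 9373 and 5002 in RM-HS, at 4553 to 11974 in RM (median 7577), and at 2687, 3129, 4704, 3432 and 2771 in HS, against 2023 to 3228 in Sham (median 2592). RM-HS and RM libraries lay above all Sham libraries, and HS replicates 1, 2 and 5 lay within the Sham range. The rise was 1.45 ± 0.24 in RM-HS (adjusted p = 9.7e-05) and 1.53 ± 0.20 in RM (adjusted p = 2.9e-06). In HS the difference was 0.35 ± 0.21 with a 95% interval from -0.08 to 0.78 (adjusted p = 0.18). Within libraries named R, where RM has 1 library, the RM difference was 0.83 (adjusted p = 0.16).

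Dusp4 encodes another inducible nuclear phosphatase that acts on ERK and JNK (GSRG0012295, rn6 chr16:61080767-61090973), and it was the one of the 9 that did not rise in RM-HS. Its values were 50.1, 65.2 and 68.4 in RM-HS, 55.5 to 156 in RM (median 113.2), and 44.9, 63.5, 108, 56.8 and 32.02 in HS, against 13.8 to 98.9 in Sham (median 50.02). The groups overlapped throughout, and the Sham libraries spanned a 7.19-fold range. The difference from Sham was 0.54 ± 0.48 in RM-HS (95% interval -0.47 to 1.55, adjusted p = 0.39) and 0.43 ± 0.42 in HS (adjusted p = 0.42). The rise in RM was 1.198 ± 0.40 (adjusted p = 0.015), and this call was lost with Sham replicates 1 and 6 alone (0.93, adjusted p = 0.11), with the name letter as covariate (1.21, adjusted p = 0.12) and within libraries named R (0.45, adjusted p = 0.79). Over its 32 alternatives the adjusted p ran from 0.0042 to 0.79.

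Of the phosphatases that prefer JNK and p38, Dusp8 had the largest change of the 9 genes in each comparison with Sham (GSRG0004708, rn6 chr1:215030429-215043111). It stood at 1899, 1490 and 1592 in RM-HS, at 1058 to 1893 in RM (median 1112), and at 442, 506, 600, 738 and 479 in HS, against 99.5 to 174 in Sham (median 140). The RM-HS and RM libraries all lay above the HS libraries, and those all lay above Sham. Dusp8 rose 12.1-fold in RM-HS (3.60 ± 0.20, adjusted p = 4.9e-10), 9.01-fold in RM (3.17 ± 0.16, adjusted p = 2.2e-11) and 3.99-fold in HS (2.00 ± 0.17, adjusted p = 1.2e-07). With Sham replicates 1 and 6 as the only controls, its log2 fold change was 3.93, 3.50 and 2.32 in the same order.

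Dusp10, which also prefers JNK and p38 (GSRG0009728, rn6 chr13:104284660-104321455), changed by smaller and more even amounts. Its values were 159, 177 and 91.2 in RM-HS, 82.6 to 160 in RM (median 106), and 148, 113.4, 101, 131 and 154 in HS, against 51.4 to 111 in Sham (median 66.1). Each injured group overlapped Sham through Sham replicate 3, at 111, and the other Sham libraries lay at 73.2 or lower. The rise was 0.99 ± 0.26 in RM-HS (adjusted p = 0.0052), 0.69 ± 0.22 in RM (adjusted p = 0.011) and 0.89 ± 0.23 in HS (adjusted p = 0.0031). Its RM call was lost with the name letter as covariate (0.39, adjusted p = 0.34) and within libraries named R (0.27, adjusted p = 0.78), and over its 32 alternatives the adjusted p ran from 0.0028 to 0.78. Its HS call was also lost within libraries named R (0.79, adjusted p = 0.052), with adjusted p from 0.00094 to 0.052 over the alternatives.

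The sprouty genes are induced by growth factor signalling and blunt the Ras to ERK relay below receptor tyrosine kinases. Spry2 (GSRG0011790, rn6 chr15:90172769-90175802) stood at 2276, 3490 and 1388 in RM-HS, at 1559 to 3434 in RM (median 2336), and at 970, 977, 1660, 1258 and 728 in HS, against 718 to 1124 in Sham (median 926). HS replicates 3 and 4 lay above the Sham range, and the other 3 HS libraries lay within it. Spry2 rose by 1.28 ± 0.26 in RM-HS (adjusted p = 0.00065) and by 1.33 ± 0.21 in RM (adjusted p = 3.3e-05), and in HS the difference was 0.23 ± 0.22 (95% interval -0.24 to 0.69, adjusted p = 0.43). The RM call was lost within libraries named R (1.18, adjusted p = 0.10).

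Spry4 (GSRG0013623, rn6 chr18:32594958-32609864) stood at 898, 883 and 898 in RM-HS, at 909 to 1157 in RM (median 981), and at 386, 643, 718, 830 and 528 in HS, against 318 to 464 in Sham (median 383). The RM-HS libraries were nearly equal and lay just under the RM libraries, and HS replicate 1 lay inside the Sham range. Spry4 rose by 1.21 ± 0.17 in RM-HS (adjusted p = 1.9e-05), by 1.39 ± 0.14 in RM (adjusted p = 1.5e-07) and by 0.64 ± 0.15 in HS (adjusted p = 0.0015).

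Spred1 encodes a membrane protein that brings the Ras inhibitor neurofibromin to Ras (GSRG0019579, rn6 chr3:108795337-108857358). Its values were 341, 315 and 306 in RM-HS, 363 to 534 in RM (median 423), and 326, 295, 301, 317 and 291 in HS, against 178 to 271 in Sham (median 205). The RM libraries lay above all others, and the RM-HS libraries overlapped those of HS. Spred1 rose by 0.59 ± 0.15 in RM-HS (adjusted p = 0.0039), by 1.015 ± 0.12 in RM (adjusted p = 1.4e-06) and by 0.52 ± 0.13 in HS (adjusted p = 0.0025). Within libraries named R the RM difference was 0.90 (adjusted p = 0.070).

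**Figure D2:**
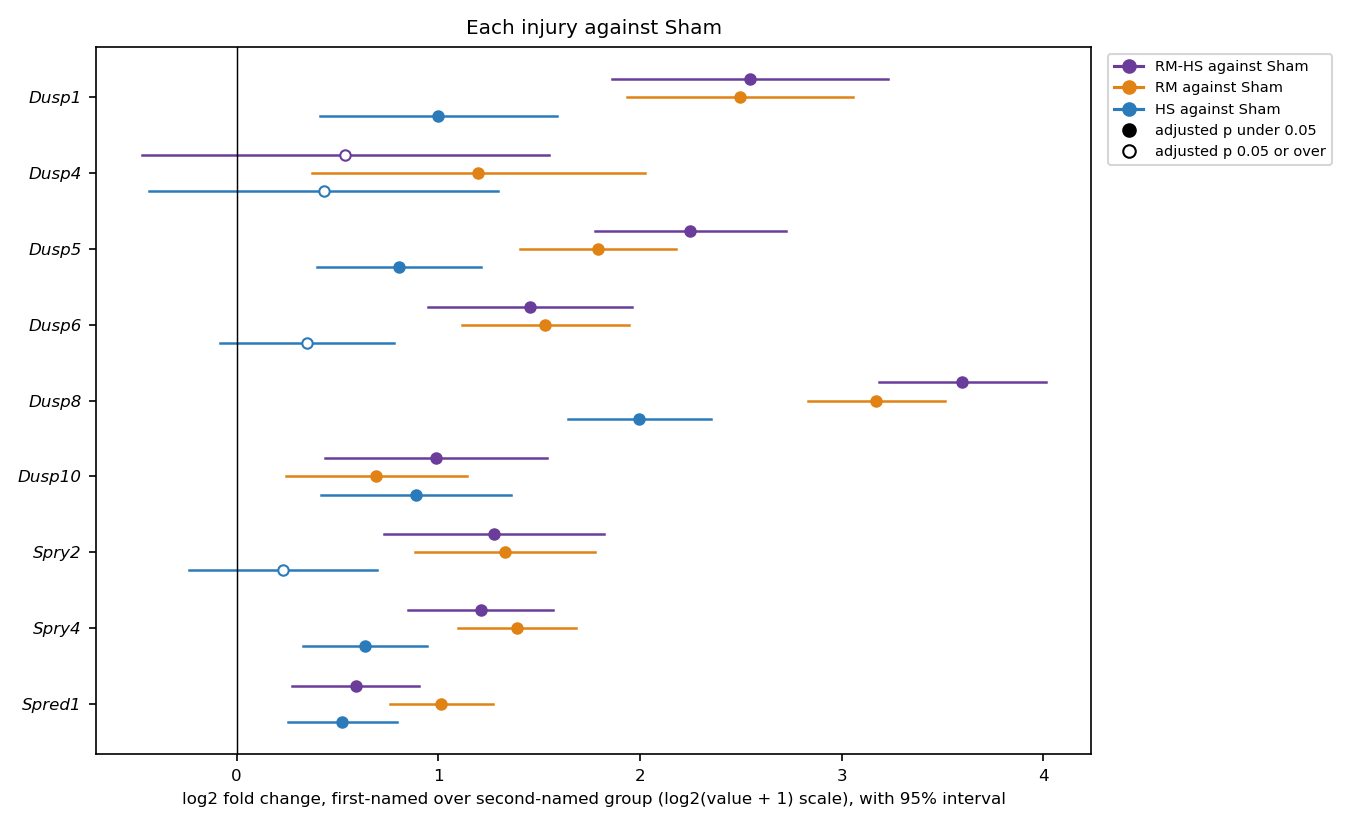
Log2 fold change against Sham (x axis, log2(value + 1) scale) of each gene (y axis) in RM-HS, RM and HS, with 95% intervals from limma. Filled points passed an adjusted p of 0.05 and open points did not. Dusp8 lies farthest right in each comparison, at 3.60, 3.17 and 2.00, and the open points are Dusp4 in RM-HS and HS, and Dusp6 and Spry2 in HS.

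Some libraries stood at the edge of their group for several genes. RM replicate 3 had the highest RM value for 6 of the 9 genes, RM-HS replicate 3 had the lowest RM-HS value for 6, and HS replicate 5 the lowest HS value for 5. Leaving out any 1 of the 20 libraries left 8, 9 and 6 genes called in RM-HS, RM and HS against Sham. With Sham replicates 1 and 6 alone, 8 were called in both RM-HS and RM, and 6 in HS. Within libraries named R, where RM is replicate 1 alone and the other groups supply the spread, 4 genes were called in RM, namely Dusp1, Dusp5, Dusp8 and Spry4. Within those libraries 8 were called in RM-HS against Sham, 4 in HS against Sham, where Dusp1 and Dusp10 did not pass, and 4 in RM-HS against HS, where Spry2 and Spry4 did not.

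Set against HS, both injuries with RM in their name had more of these transcripts. In RM-HS against HS, 6 genes rose, against 10% of all genes higher, and 5 of the 9 did not overlap between groups, against 12.8%. In RM against HS, 7 rose, against 11.1% of all genes, and 4 did not overlap, against 6.04%. Dusp8 was 3.03-fold higher in RM-HS than in HS (1.60 ± 0.21, adjusted p = 6.2e-05) and 2.26-fold higher in RM than in HS (1.18 ± 0.17, adjusted p = 5.8e-05). Dusp1 differed by 1.55 ± 0.34 in RM-HS against HS (adjusted p = 0.0037) and by 1.495 ± 0.28 in RM against HS (adjusted p = 0.00072). For Dusp5 the differences were 1.45 ± 0.23 and 0.99 ± 0.19, and for Dusp6 1.10 ± 0.25 and 1.18 ± 0.21, in the same order, and all 4 passed. Dusp10 did not pass, with 0.10 in RM-HS against HS (95% interval -0.47 to 0.67) and -0.20 in RM against HS (95% interval -0.67 to 0.27). Dusp4 did not pass either, with 0.11 in RM-HS against HS (95% interval -0.94 to 1.15) and 0.77 in RM against HS (95% interval -0.10 to 1.63).

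Among the sprouty genes and Spred1, Spry2 was higher by 1.05 ± 0.27 in RM-HS than in HS (adjusted p = 0.010) and by 1.10 ± 0.22 in RM than in HS (adjusted p = 0.0013). The first of these did not pass without RM-HS replicate 2 (0.72, adjusted p = 0.083) or within libraries named R (0.94, adjusted p = 0.070), and over 32 alternatives its adjusted p ran from 0.00087 to 0.083. Spry4 was higher by 0.57 ± 0.18 in RM-HS than in HS (adjusted p = 0.028), a call lost in 7 of 32 alternatives, among them leaving out RM-HS replicate 1, 2 or 3 or HS replicate 1 or 5, with adjusted p from 0.010 to 0.10. It was higher by 0.75 ± 0.15 in RM than in HS (adjusted p = 0.0010). Spred1 was higher by 0.49 ± 0.13 in RM than in HS (adjusted p = 0.0090) but differed by 0.07 ± 0.16 between RM-HS and HS (95% interval -0.26 to 0.39, adjusted p = 0.80). Within libraries named R, none of the 9 genes passed in RM against HS by limma at the adjusted threshold, with 1 RM library and 3 HS libraries.

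Between RM-HS and RM, none of the 9 genes passed by limma, edgeR or DESeq2, where 1.08% of all genes passed by limma in either direction. At an unadjusted p under 0.05, limma gave 2 genes. Dusp8 was higher by 0.43 ± 0.20 in RM-HS (95% interval 0.01 to 0.84, adjusted p = 0.30), and Spred1 was lower, at -0.42 ± 0.15 (95% interval -0.74 to -0.11, adjusted p = 0.17). All RM-HS libraries lay below all RM libraries for Spred1 and Spry4, which 3.44% of all genes did. For Dusp1 the 95% interval was -0.64 to 0.74, and for Dusp6 it was -0.58 to 0.43. Differences of about these sizes remain possible with 3 RM-HS libraries, and the intervals do not cover the name letter. The letter is R in every RM-HS library and S in 5 of the 6 RM libraries, so letter and injury are hard to tell apart. Within libraries named R, with 1 RM library, the difference was -0.10 for Dusp1 and 0.63 for Dusp6. For Dusp4 it was 0.08 there, against -0.66 over all libraries.

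**Figure D3:**
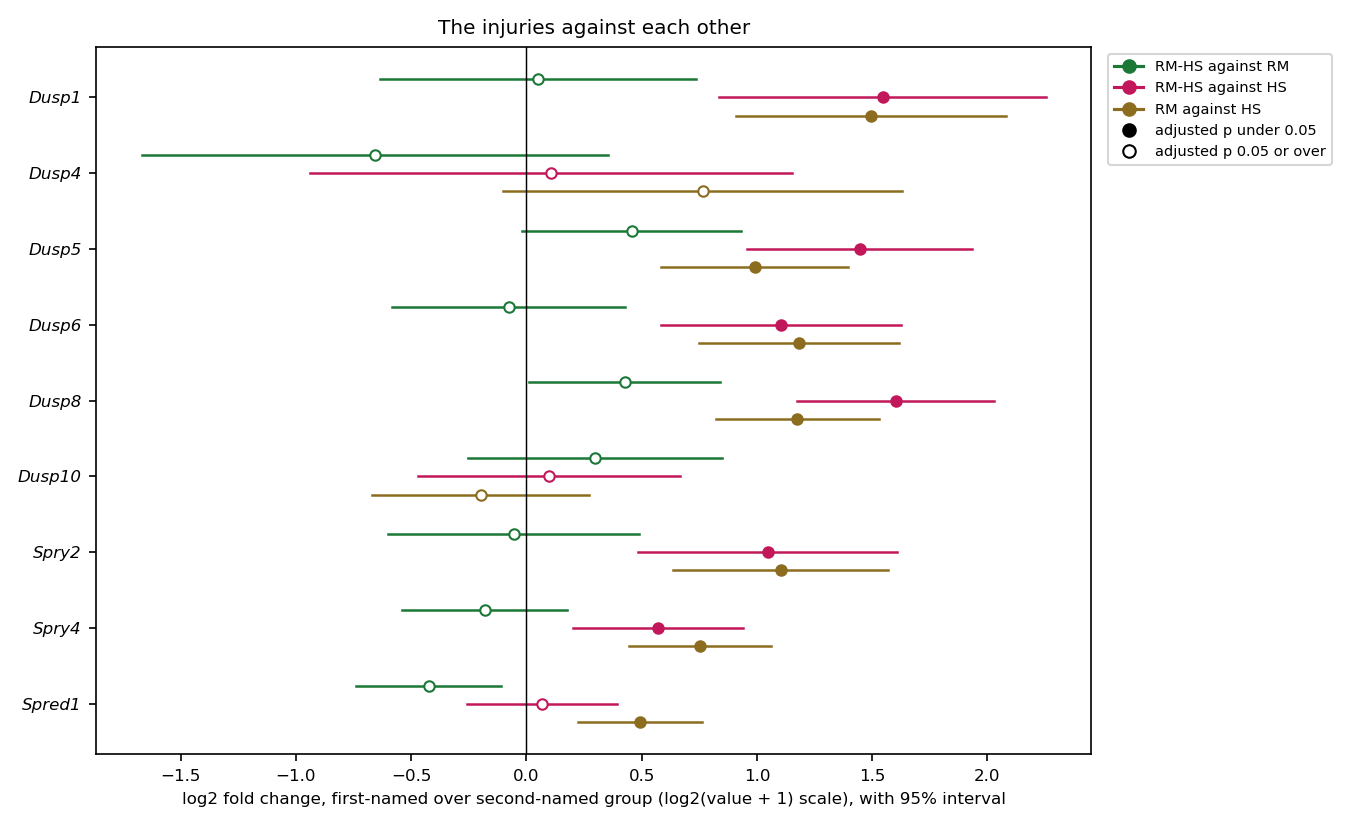
Log2 fold change of each gene (y axis) in RM-HS relative to RM, in RM-HS relative to HS and in RM relative to HS (x axis, log2(value + 1) scale), with 95% intervals from limma. Filled points passed an adjusted p of 0.05. All RM-HS against RM points are open, while Dusp1 lies at 1.55 and 1.495 in the comparisons with HS.

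The log2 change in RM-HS was set beside the sum of the log2 changes in RM and HS, which asks whether the folds of the single injuries multiply. For all 9 genes the log2 change in RM-HS was below that sum, and the share of all genes below their own sum was not counted. For 3 the departure passed, namely Dusp8, Spred1 and Spry4, where 16.8% of all genes had a negative departure that passed. In the lists described below, a negative departure passed in 9 of 17 Ras to ERK genes and 8 of 17 ligands and receptors. It passed in 5 of 17 JNK and p38 genes and 2 of 12 ERK response genes. Of other phosphatases it passed in 2 of 4, and of other sprouty and Spred genes in 0 of 3. A positive one passed in 1 or 2 genes of each list, except the last, with 0. For Dusp8 the RM-HS change was 3.60 against a sum of 5.17, a departure of -1.57 ± 0.26 (adjusted p = 0.00026). For Spred1 it was 0.59 against 1.54, a departure of -0.95 ± 0.20 (adjusted p = 0.0014), and for Spry4 1.21 against 2.03, a departure of -0.82 ± 0.23 (adjusted p = 0.0095). The 9 estimates share all libraries and are not independent of each other. With the name letter as covariate 1 gene passed, Dusp8, while Spry4 (-0.76, adjusted p = 0.17) and Spred1 (-0.89, adjusted p = 0.073) did not, and within libraries named R none did. On the scale of the counts themselves the departure was not tested. Dusp8 averaged 1660 in RM-HS, against 1672 for the RM mean plus the HS mean less the Sham mean, so its departure was seen on the log2 scale and not in the mean counts. Spry4 averaged 893 against 1249, and Spred1 321 against 524, both below the sum on either scale. Dusp5 averaged 3369 against 3106, above the sum of counts. Dusp1 had -0.95 ± 0.43 (adjusted p = 0.10) and passed without Sham replicate 2 (-1.20, adjusted p = 0.011) or with Sham replicates 1 and 6 alone (-1.70, adjusted p = 0.0022), with adjusted p from 0.0022 to 0.57 over 31 alternatives.

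**Figure D4:**
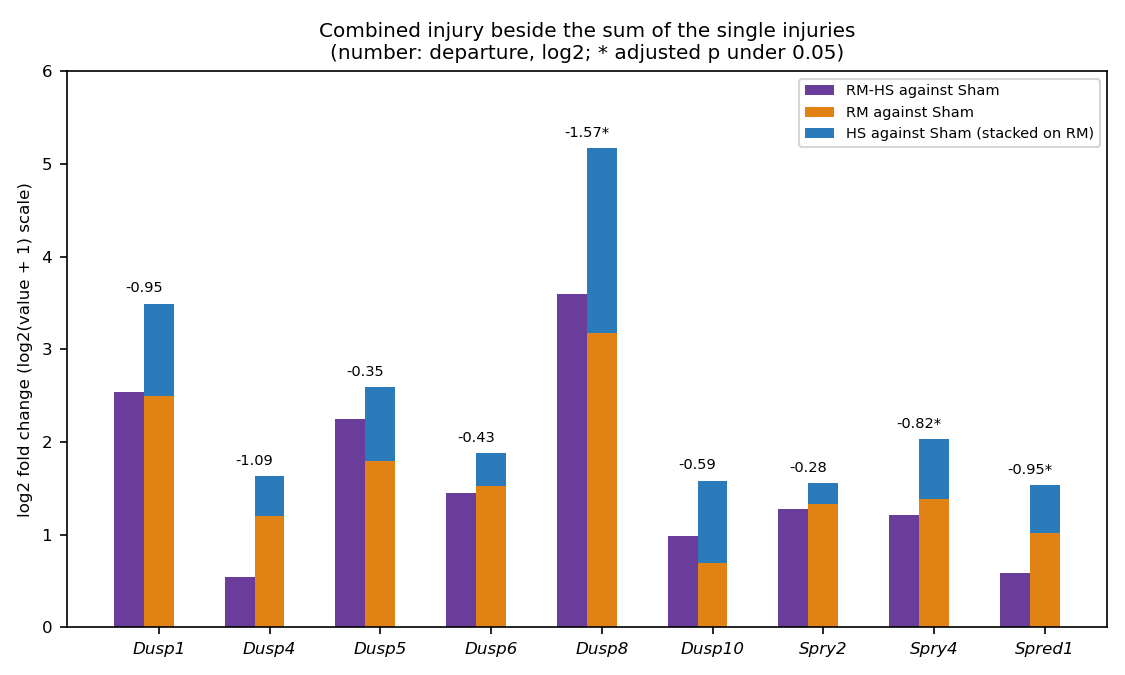
Log2 fold change against Sham (y axis, from 0, log2(value + 1) scale) of each gene (x axis) in RM-HS, beside a stacked bar of the RM and HS changes. The number above each pair is the departure, and a star marks an adjusted p under 0.05. The stacked bar is taller for each gene, by 1.57 for Dusp8 and by 0.28 for Spry2.

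Other genes of the pathway were counted over whole lists. Of the 4 other MAP kinase phosphatases, 2 rose in RM-HS, RM and HS, namely Dusp16, which prefers JNK and p38, and Dusp7, a cytoplasmic ERK phosphatase, and Dusp2 fell in HS. Dusp16 averaged 751 ± 146 in RM-HS, 955 ± 218 in RM and 584 ± 35.4 in HS, against 340 ± 48.1 in Sham (mean ± SD), a log2 fold change of 1.13, 1.47 and 0.79. Dusp7 had its highest mean in HS, at 1343 ± 237, against 652 ± 241 in Sham (1.10 ± 0.19, adjusted p = 0.00014), with 0.78 in RM-HS and 0.66 in RM. Of 3 other sprouty and Spred genes tested, Spred3 rose in RM-HS, at 255 ± 37.5 against 48.7 ± 19.4 in Sham (2.45 ± 0.36), and in RM, at 195 ± 43.3 (2.04 ± 0.29), and its HS difference was 0.72 ± 0.31 (adjusted p = 0.061). Spred2 and Spry3 did not pass in any of the 3 comparisons, and Spry1 was not analysed here.

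The relay itself moved by smaller steps. Of 17 Ras to ERK genes tested, 8 rose and 1 fell in RM-HS, 13 rose and 1 fell in RM, and 10 rose and 2 fell in HS, with a median log2 fold change of 0.24, 0.46 and 0.46. The Ras gene Nras averaged 1338 ± 70.7 in RM-HS, 1124 ± 127 in RM and 1505 ± 233 in HS, against 705 ± 53.7 in Sham. Mapk3, which encodes ERK1, fell in all 3, by 0.51 in RM. Of 17 JNK and p38 genes, 8 rose and 1 fell in RM-HS, 8 and 1 in RM, and 7 and 3 in HS. Mapk14, the main p38 gene, averaged 4474 ± 362 in RM-HS, 4607 ± 752 in RM and 3739 ± 214 in HS, against 1987 ± 120 in Sham. Map2k6, an upstream kinase of p38, fell in HS to 46.99 ± 19.0, against 184 ± 49.3 in Sham (-1.98 ± 0.27).

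Genes known to follow ERK activity behaved unevenly. Of 12, 8 rose and 2 fell in RM-HS and in RM, and 4 rose and 1 fell in HS, with a median log2 fold change of 1.81, 1.71 and 0.17. Fosl1, an AP-1 subunit, averaged 1466 ± 642 in RM-HS, 1455 ± 711 in RM and 261 ± 79.7 in HS, against 13.3 ± 14.4 in Sham. Myc, with the smallest adjusted p of the list in each comparison with Sham, rose by 3.89 ± 0.25 in RM-HS, 4.22 ± 0.21 in RM and 2.23 ± 0.22 in HS. The receptor gene Epha2 rose by 2.52 ± 0.22 in RM-HS, 2.01 ± 0.18 in RM and 1.21 ± 0.19 in HS. The ETS factor gene Etv5, a textbook ERK and FGF target like Dusp6 and Spry4, fell in all 3 injuries; it and Ccnd1 were chosen after their values were seen. It averaged 448 ± 114 in RM-HS, 398 ± 105 in RM and 609 ± 74.8 in HS, against 1020 ± 186 in Sham (-1.20 ± 0.20, -1.37 ± 0.16 and -0.73 ± 0.17). Ccnd1, cyclin D1, was the other to fall, in RM-HS (-0.73 ± 0.20) and in RM (-0.58 ± 0.16).

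Of 17 ligands and receptors upstream of the relay, 5 rose and 4 fell in RM-HS, 9 rose and 4 fell in RM, and 9 rose and 3 fell in HS. The RM-HS counts are near the shares over all genes, 21.3% higher and 21.0% lower. Falls in RM and HS were also no more frequent than over all genes, where 26.8% and 23.2% were lower. Hbegf, a ligand of the EGF receptor, averaged 2410 ± 760 in RM-HS, 2240 ± 755 in RM and 527 ± 60.3 in HS, against 156 ± 77.5 in Sham (4.02 ± 0.31, 3.91 ± 0.26 and 1.88 ± 0.27). Egfr, its receptor, rose by 2.37 ± 0.32 in RM-HS, 2.47 ± 0.26 in RM and 2.08 ± 0.27 in HS. Met, the receptor for hepatocyte growth factor, rose in RM-HS, RM and HS, and in HS it averaged 6415 ± 599, against 2625 ± 330 in Sham. The FGF receptor gene Fgfr3 fell in RM-HS, RM and HS, and in RM it averaged 397 ± 76.5, against 976 ± 175 in Sham (-1.30 ± 0.15).

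**Figure D5:**
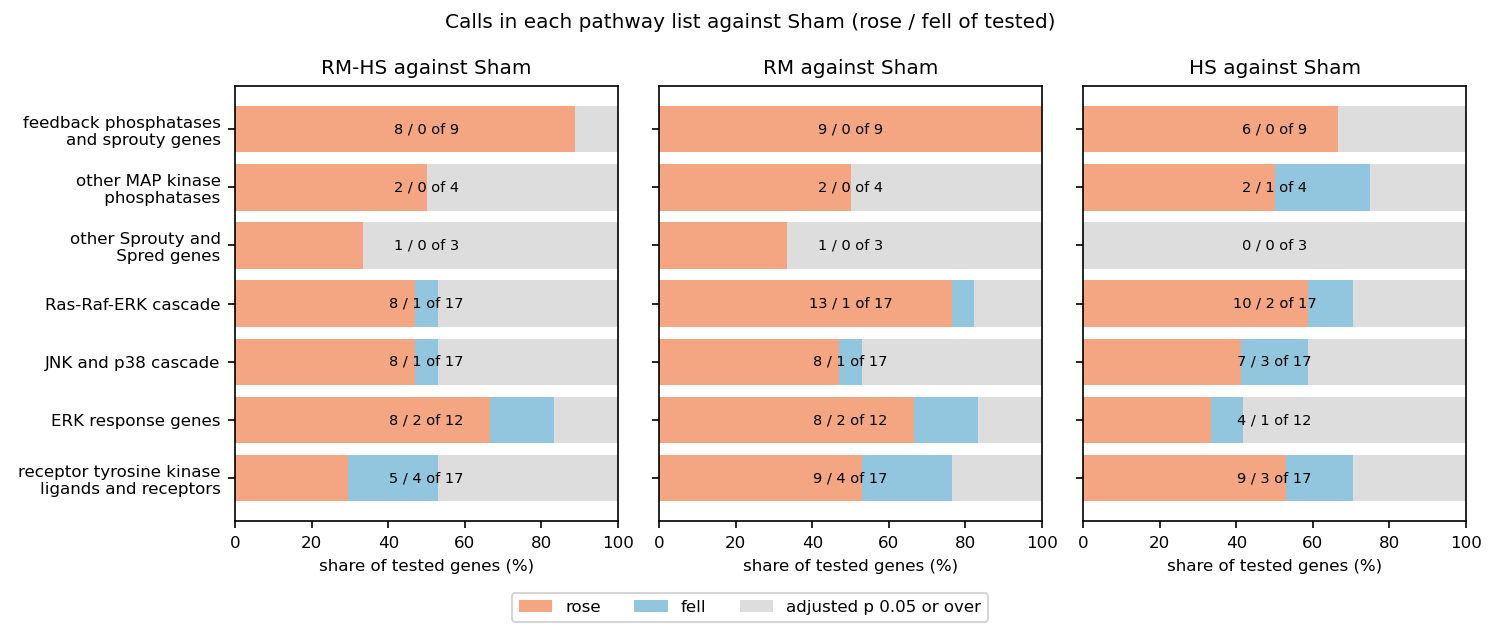
Share of tested genes (x axis, %) in each pathway list (y axis) that rose, fell or did not pass against Sham, in RM-HS, RM and HS. Numbers give rose / fell of tested. The 9 feedback genes show 8, 9 and 6 rises and no fall, and every other list except the other sprouty genes holds a fall in at least 1 comparison.

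Likeness of profiles was measured as the root mean square difference of log2(value + 1) over the 20 libraries, after subtracting each gene's own mean. Among the 36 pairs of these genes, Dusp6 and Spry2 were closest, at 0.23, where each varied by 0.76 and 0.71 about its own mean. Spry4 and Spred1 followed at 0.37, where each varied by 0.61 and 0.43 about its own mean. Dusp4 and Dusp8 were farthest apart at 1.25, where each varied by 0.80 and 1.44. The measure is smaller for genes that vary little, so its values do not rank likeness between genes of unlike variation. Over all other named genes, Zfp36l1, a destabiliser of short-lived mRNAs, was the closest both to Dusp6 (0.23) and to Spry2 (0.24). The closest gene to Dusp8 was Jun (0.30), the AP-1 subunit that JNK phosphorylates, and to Dusp1 it was the stress transcription factor gene Atf4 (0.40). For Dusp5 it was Mideas (0.28), for Dusp4 Nt5dc3 (0.52), for Dusp10 Smarca5 (0.28), for Spry4 Slc17a2 (0.24) and for Spred1 Cnot4 (0.16).

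Markers of other cells moved with some of these results. All 5 neutrophil markers rose in RM-HS and in RM, and 1 in HS, and their summed level ran from 7561 to 12620 in RM-HS, 5017 to 20508 in RM and 1929 to 8205 in HS, against 897 to 4743 in Sham, with no marker at 0 throughout a group. The 5 collecting duct principal cell markers fell in all 3 injuries, with sums of 7700 to 17728 in RM-HS, 10475 to 34332 in RM and 12797 to 20064 in HS, against 30473 to 82831 in Sham. Thick ascending limb markers fell in 4 of 5 in RM-HS and 5 of 5 in RM and HS. Early proximal tubule markers rose in 6, 6 and 5 of 7. Their summed level ran from 235021 to 399045 in RM-HS, 231316 to 333267 in RM and 214656 to 274242 in HS. In Sham it ran from 79456 to 246479, which overlapped each injured group. These 7 markers include Slc5a2, which was low in Sham replicates 2 to 5, and their calls with Sham replicates 1 and 6 alone are not given. Podocyte markers rose in 2 of 5 in RM-HS, 5 of 5 in RM and 4 of 5 in HS, with sums of 7839 to 8985 in RM-HS, 8133 to 10696 in RM and 7536 to 9491 in HS, against 1832 to 7977 in Sham. Of 6 endothelial markers, 1 rose in each injury, while 2 fell in RM-HS, 1 in RM and 4 in HS. The part of these cell types in the results was not tested.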

How the data were processed

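Per the submitters' processing notes, reads were examined with FastQC 0.11.2, Picard 1.119 and SAMtools 1.0, aligned with STAR to rn6, counted by gene with featureCounts of Subread 1.5.0 and normalized with DESeq2. The authors' deposited signal is therefore a normalized read count. No source used here states the settings of alignment or counting, so whether both reads of a pair were counted is not known. Dividing each library by its own step returned whole reads, with 100% of values no more than 0.1 from an integer.

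A row entered the test when it reached 10 in 3 or more libraries (15954 rows). limma 3.58.1, under R 4.3.3, fitted 4 group means to log2(value + 1) over 20 libraries together and let the variance follow the mean. Alternatives were pseudocounts of 0.5 and 8, other filters, trimmed mean of M values and upper quartile scaling, fits of the compared groups, the library name letter as covariate, libraries named R, Sham replicates 1 and 6 alone, count models on those whole reads (DESeq2 1.42.0, edgeR 4.0.16), and leaving out each library. The fit was also run on simulated counts with the same spread for all genes and no difference among Sham libraries or name letters. That run therefore says nothing about those features of these data.

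The members, lists and motifs were chosen with earlier results of these data known. From each list, genes were named among the 3 of smallest adjusted p in each comparison with Sham. Replicates were numbered in listing order. Levels are not compared between genes, as lengths were not used.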

Additional observations from a re-analysis of the deposited data

Results flagged for a closer look

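Groups of 5 or 6 libraries were examined for a single library far from the rest, in 27 combinations of gene and group, and 3 stood out, where chance marks about 1 in 20. Dusp1 stood at 5434 in HS replicate 4, with the other 4 HS libraries between 4203 and 4447. Dusp8 stood at 1893 in RM replicate 3, with the other RM libraries between 1058 and 1284. Dusp10 stood at 111 in Sham replicate 3, with the other Sham libraries between 51.4 and 73.2.

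On the log2 scale, the departure of RM-HS below the sum of the RM and HS changes passed for 3 genes by limma. Over all genes, 16.8% had a negative departure that passed. The departure was -1.57 for Dusp8 (adjusted p = 0.00026), -0.82 for Spry4 (adjusted p = 0.0095) and -0.95 for Spred1 (adjusted p = 0.0014). With the name letter as covariate Spry4 (adjusted p = 0.17) and Spred1 (adjusted p = 0.073) did not pass, and within libraries named R none of the 3 did. In mean counts Dusp8 stood at 1660 in RM-HS, against 1672 for the sum of the single injuries less Sham.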

How the results depend on the processing

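Over 32 alternatives, 2007 recomputed fold changes of the 9 genes gave 1974 on the same side of the threshold, 31 calls lost and 2 gained, and no called change turned its sign. Values that passed in neither setting changed sign 20 times. Within libraries named R, 4 genes passed in RM against Sham, 0 in RM against HS and 0 for the departure from the log2 sum, where RM has 1 library assumed to vary like the other groups. With the name letter as covariate, 1 passed for the departure. Leaving out each library gave 9 to 9 calls in RM against Sham, 6 to 6 in HS against Sham, 8 to 8 in RM-HS against Sham, 0 to 0 in RM-HS against RM, 4 to 6 in RM-HS against HS, 7 to 7 in RM against HS and 3 to 4 for the departure. Over all genes, calls in RM-HS against Sham were 6749, and 4347 with Sham replicates 1 and 6 alone. In RM against Sham they were 8455, and 5250 with those controls, 4551 with the letter and 766 within libraries named R. In HS against Sham they were 7410, and 4105 with those controls. In RM-HS against RM they were 173, and 505 by DESeq2, 42 in a fit of those groups alone, 0 with the letter, 0 within libraries named R and 21 to 480 without single libraries. In RM-HS against HS they were 3287, and 1203 within libraries named R and 2015 without RM-HS replicate 3. In RM against HS they were 3791, and 195 within libraries named R. For the departure they were 5054, and 3151 with those controls, 617 with the letter and 0 within libraries named R. Of 1338 recomputed counts of the other pathway lists, 77 moved by over 1.5 times. Upper quartile scaling moved the median of all genes against Sham by -0.13 in RM-HS, -0.14 in RM and -0.12 in HS, and the share of calls that were higher was 37.0%, 37.0% and 38.4% with it, against 50.3%, 49.4% and 50.1%. The causes were not tested. No paired analysis was possible because replicate numbers follow listing order. Low counts of Dusp4 and Dusp10 limit their precision.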
